A study of Mus musculus and Rattus norvegicus with 53 samples.

Results

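The AP-1 transcription factor genes Jun, Junb, Jund, Fos, Fosb, Fosl1 and Fosl2 and the related gene Atf3 were followed in Schwann cells (SCs) sorted from intact and injured mouse sciatic nerves. These 8 genes were taken by their symbols from the 24016 genes listed in the 47 mouse libraries, of 53 libraries in the series. All mice carried a Cre transgene active in cells of neural crest origin and a Rosa26 tdTomato reporter, so the intact controls carried both alleles too. Male and female young adults were used, 1 sciatic nerve was cut through, and tdTomato+ cells were sorted by flow cytometry after warm enzyme digestion of the nerve. By the paper, intact nerves were the uncut nerves on the other side of operated mice. In the pooled experiment each library held nerves of 3 mice taken on day 6, with 4 libraries of SCs from intact nerves (iSCs), 4 from the distal stump (dSCs) and 4 from the bridge of new tissue that joins the cut ends (bSCs). Bridges of the 3 mice shared a digestion, whereas distal and intact nerves were digested apart and combined afterwards. In pooled comparisons with bSCs, region and digestion therefore cannot be told apart. In the single-nerve time course there were 5 libraries of iSCs, 3 of dSCs at each of 6 time points (day 1 and the even days from 2 to 10), and 3 of bSCs at each of the last 4 of these days.

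AP-1 is a dimer of basic leucine zipper (bZIP) proteins. JUN, JUNB and JUND can pair with themselves or with a FOS family partner, whereas FOS, FOSB, FOSL1 (FRA-1) and FOSL2 (FRA-2) need a JUN family partner to bind DNA. ATF3 is a stress-induced bZIP protein that pairs with itself or with JUN proteins. Fos, Fosb, Junb, Jun and Atf3 are immediate early genes, whose transcripts rise within minutes of many stimuli, enzyme digestion of tissue among them, while Jund is more evenly expressed. In injured nerves c-Jun, the product of Jun, is known as a regulator of the repair state of SCs.

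The genes lie on 7 chromosomes of the build used for the counts (mm9, NCBIM37), and only Junb and Jund share one. In the GENCODE vM1 annotation Jun is at chr4:94715725-94718913 on the minus strand, Junb at chr8:87500811-87502617 on the minus strand and Jund at chr8:73221638-73224515 on the plus strand. Fos is at chr12:86814840-86818223 on the plus strand, Fosb at chr7:19888070-19895394 on the minus strand, Fosl1 at chr19:5447703-5455945 and Fosl2 at chr5:32438845-32460204, both on the plus strand, and Atf3 at chr1:192994175-193007219 on the minus strand. Jun overlaps the transcript BC042782, Jund overlaps Gm11175 and Fosl1 overlaps Ccdc85b, each on the opposite strand. The library kit does not mark strand, so reads from these partners cannot be told apart in the shared stretches.

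RefSeq promoters of 250 bases before to 50 bases after the annotated start (GRCm38.p6) were matched for 7 of the 8 genes. Those of Fos, Jun, Atf3 and Fosl2 are shown because the results below turn on Fos, Atf3 and Fosl2 and because Jun, Fos and Atf3 hold a letter match to a motif of this protein family. Capitals mark those matches, and each sequence reads in the direction of its gene.
Fos, chr12:85473640-85473939, plus strand: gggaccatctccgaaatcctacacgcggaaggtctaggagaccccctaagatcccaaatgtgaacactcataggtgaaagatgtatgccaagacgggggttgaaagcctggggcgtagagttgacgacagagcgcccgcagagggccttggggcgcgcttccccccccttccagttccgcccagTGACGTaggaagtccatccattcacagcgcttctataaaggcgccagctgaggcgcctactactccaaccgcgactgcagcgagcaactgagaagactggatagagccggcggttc
Jun, chr4:95052173-95052472, minus strand: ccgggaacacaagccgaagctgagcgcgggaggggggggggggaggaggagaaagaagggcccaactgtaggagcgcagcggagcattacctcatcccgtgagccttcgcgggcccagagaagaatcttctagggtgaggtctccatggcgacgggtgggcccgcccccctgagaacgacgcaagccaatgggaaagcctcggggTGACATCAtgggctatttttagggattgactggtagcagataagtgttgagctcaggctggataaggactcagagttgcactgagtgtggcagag
Atf3, chr1:191183284-191183583, minus strand: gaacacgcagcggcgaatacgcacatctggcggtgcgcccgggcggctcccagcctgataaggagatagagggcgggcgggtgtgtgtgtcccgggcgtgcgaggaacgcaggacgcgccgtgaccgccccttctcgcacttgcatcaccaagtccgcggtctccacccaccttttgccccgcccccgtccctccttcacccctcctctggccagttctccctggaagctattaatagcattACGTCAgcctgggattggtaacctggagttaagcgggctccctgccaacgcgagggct
Fosl2, chr5:32136222-32136521, plus strand: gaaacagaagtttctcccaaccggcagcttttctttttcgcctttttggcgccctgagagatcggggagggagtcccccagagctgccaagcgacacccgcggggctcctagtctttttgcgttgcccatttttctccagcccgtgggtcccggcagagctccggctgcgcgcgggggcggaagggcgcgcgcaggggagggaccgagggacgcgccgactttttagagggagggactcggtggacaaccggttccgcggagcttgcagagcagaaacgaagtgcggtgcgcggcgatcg

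Both strands were searched for TGACTCA, the classical AP-1 letters, for TGACNTCA, and for TGACGT, whose matches can overlap those of TGACNTCA. TGACTCA was in 0 of the 7 promoters and in 5.2% of all 32851 promoters of this length. TGACNTCA was in that of Jun, with the match beginning 45 bases before the start, and in 8.83% of all promoters. TGACGT was in those of Fos, 66 bases before the start, and of Atf3, where the reverse strand holds it 8 bases before the start, and in 7.51% of all promoters. A letter match describes the sequence only, and 250 bases hold part of the regulatory DNA of a gene.

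Between 11435463 and 22617054 reads were counted on genes in the pooled libraries and between 9240883 and 22426128 in the single-nerve libraries, with 11735 to 14987 and 10042 to 15815 genes detected. All 8 genes passed the filter on low counts in both experiments. Fosl1 was without counts in most iSC libraries and could pass only through the injured groups. Its lack of overlap with iSCs and its calls against them are therefore not independent of the filter. In the single nerves, 2 iSC libraries (replicates 0 and 1) and 1 dSC library of day 2 (replicate 0) had under 11000 detected genes and the lowest scaling factors. Values without these 3 libraries are given beside some of the results they touch. Single-nerve correlations, marker sums and gene lists include these libraries. Summed levels of 7 Schwann cell markers were 767 to 7947 CPM (counts scaled to a common library size) over the pooled libraries, with iSCs at 2074 to 7947 and dSCs and bSCs at 767 to 1709. Summed levels of 9 macrophage markers were 163 to 4598 CPM in pooled iSCs, 2164 to 6470 in bSCs and 8214 to 13424 in dSCs, and 6 fibroblast markers summed to 7072 to 34915 CPM over the pooled libraries. Whether transcripts of these markers came from SCs or from other cells was not tested, and in bulk samples fewer cells of a type and less RNA per cell cannot be told apart. Each p-value below comes from edgeR's quasi-likelihood test with Benjamini-Hochberg adjustment over all genes tested unless another test is named, and a gene was called at an adjusted p under 0.05.

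Fos was the most abundant of the 8 genes per length of transcript in both experiments, and Junb, Jun and Atf3 came next in pooled nerves. In pooled iSCs the mean level per kilobase of exon was 1545 CPM ± 1277 (SD, n = 4) for Fos, 507 ± 407 for Junb, 235 ± 138 for Jun and 69.0 ± 53.2 for Atf3. In pooled dSCs Jun, Junb and Atf3 lay at 149 ± 39.4, 147 ± 12.5 and 140 ± 6.85 CPM per kilobase and differed by less than the spread of the Jun libraries. Fosl1 was the lowest of the 8 in pooled iSCs, at 0.238 ± 0.477 CPM per kilobase, and Fosb was the lowest in pooled bSCs, at 6.66 ± 5.13, where Fosl1 was at 11.4 ± 13.1.

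Comparison of pooled dSCs with iSCs asked which AP-1 genes differed between the distal stump and intact nerve on day 6. Of the 8 genes, 1 rose (Fosl2) and 1 fell (Fos), where 5.32% of all 13751 genes tested were called, 2.63% higher and 2.69% lower. Libraries of the groups did not overlap for Fosl2 and Fosl1, both higher in dSCs, as for 7.56% of all genes, while 17% of all genes had no overlap in either direction. Fosl1 could pass the filter only through the injured groups, so its lack of overlap carries no independent support.

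Fosl2, which encodes a long-lived FOS family partner, was at 27.4, 31.2, 30.4 and 60.6 CPM in iSC replicates 1, 2, 4 and 5. In dSC replicates 1, 2, 3 and 5 it was at 154, 108, 93.3 and 137 CPM. Every dSC library was above every iSC library, and iSC replicate 5 was the highest of its group. Fosl2 was 3.29-fold higher in dSCs (log2 fold change 1.72 ± 0.38 SE, adjusted p = 0.0218). The value was between 1.59 and 2.08 with any 1 library left out, but the adjusted p rose above the threshold without iSC replicate 1, 2 or 4 (0.0682, 0.0669 and 0.0707) or dSC replicate 1 or 5 (0.0571 and 0.0628). Macrophage markers moved the same way, with 2 of 9 called higher in dSCs and 0 lower and no overlap of their summed levels, and their part in the Fosl2 difference was not tested.

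Fos, the founding FOS family gene, was at 4649, 7409, 847 and 1633 CPM in iSC replicates 1, 2, 4 and 5. In dSC replicates 1, 2, 3 and 5 it was at 851, 837, 559 and 850 CPM. The iSC libraries were far apart, the dSC libraries were close together, and iSC replicate 4 lay within the dSC range. Fos was 4.70-fold lower in dSCs (log2 fold change -2.23 ± 0.59, adjusted p = 0.0436). Left-out libraries gave log2 values from -2.58 to -1.58, and the call was lost without iSC replicate 1 or 2 (adjusted p = 0.12 and 0.169) or without dSC replicate 1, 2, 3 or 5 (0.102, 0.103, 0.11 and 0.109). It was also lost when only iSC and dSC libraries were fitted (adjusted p = 0.057).

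Junb, a JUN family member that often moves with Fos, was at 1079.9, 1868, 174 and 544 CPM in iSC replicates 1, 2, 4 and 5 and at 252, 281, 241 and 288 CPM in dSC replicates 1, 2, 3 and 5. Its iSC libraries ranked in the same order as those of Fos, and iSC replicate 4 was below every dSC library. The log2 fold change was -1.79 ± 0.54 (adjusted p = 0.0801), and with the pool of animals as a block it was -1.88 with an adjusted p of 0.0499. Pools share animals between groups by the sample labels, although libraries of 1 pool did not deviate together (mean r = -0.0143 over 10 pairs). Without iSC replicate 4, Junb was called (adjusted p = 0.0186). By DESeq2 Junb was called with all libraries (log2 fold change -1.78, adjusted p = 0.0105).

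The other 5 genes did not pass the test between pooled dSCs and iSCs. Jun was at 876, 1310.2, 327 and 481 CPM in iSC replicates 1, 2, 4 and 5 and at 470, 300.5, 568 and 566 CPM in dSC replicates 1, 2, 3 and 5, with all dSC libraries but replicate 2 inside the iSC range. Atf3 had a log2 fold change of 1.02 ± 0.50 (adjusted p = 0.334), Jun of -0.65 ± 0.39, Jund of 0.15 ± 0.58 (adjusted p = 0.953) and Fosb of -1.98 ± 0.81 (adjusted p = 0.219). Fosl1, which encodes FRA-1, was counted in 1 of the 4 iSC libraries, replicate 2 at 1.63 CPM, and the other 3 were at 0, where a count of 0 allows up to 0.227 to 0.242 CPM. In dSC replicates 1, 2, 3 and 5 Fosl1 was at 18.4, 13.4, 10.3 and 4.62 CPM. Every dSC library was above every iSC library, and the fitted log2 difference of 4.77 ± 1.86 (adjusted p = 0.192) rested on 1 iSC library with counts. DESeq2 called Fosl1 in this comparison (adjusted p = 0.028). Limits from a count of 0 here cover counting error only, since reads copied by PCR are not independent molecules.

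**Figure D1:**
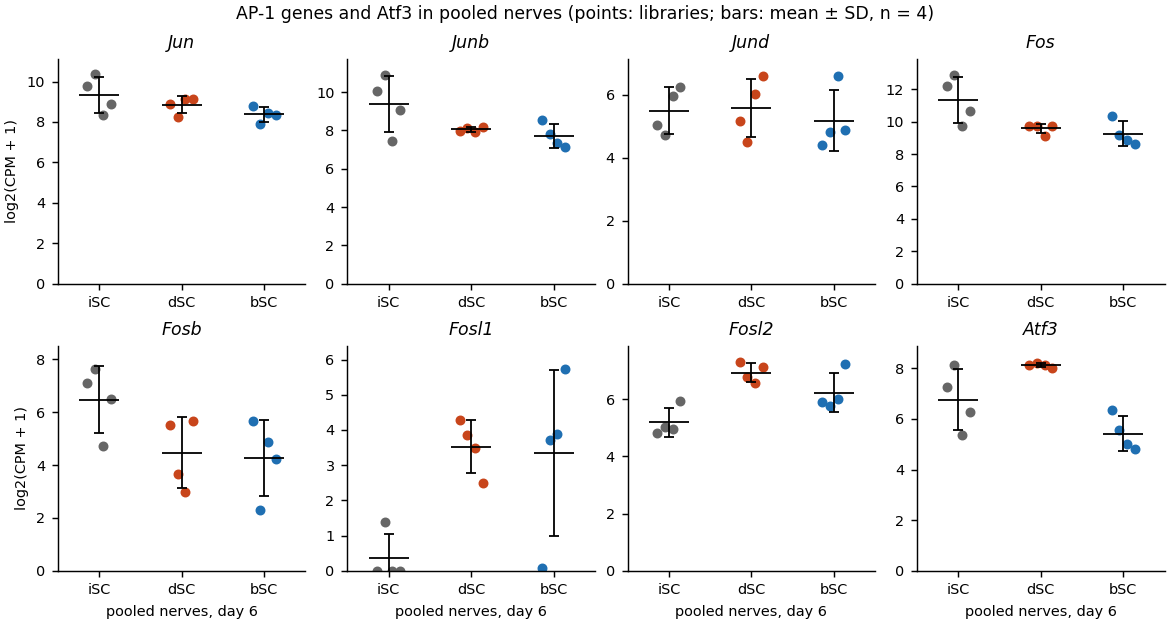
Levels of the 8 genes in pooled nerves on day 6, as log2 of CPM plus 1, in iSCs (grey), dSCs (red) and bSCs (blue). Points are libraries, and bars are the mean and SD of 4 libraries. The dSC points of Fosl2 lie above all iSC points, and the 4 dSC points of Atf3 lie together between 261 and 294 CPM above all bSC points. The iSC points of Fos, Junb, Fosb, Jun and Atf3 are spread widely.

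Comparison of pooled bSCs with iSCs gave calls for Fos and Junb, both lower in bSCs, against 14.7% of all genes called and 7.24% called higher and 7.46% lower. None of the 8 was without overlap between the groups, against 25% of all genes. These values share the iSC libraries with those for dSCs. Bridges and intact nerves also differed in how they were digested, and the part of this was not tested. In bSC replicates 1, 2, 3 and 5 Fos was at 1313, 579, 474 and 397 CPM, so that 1 bSC library lay within the iSC range. Fos was 5.26-fold lower (log2 fold change -2.40 ± 0.59, adjusted p = 0.0158), a call lost without iSC replicate 2 (0.0601) or bSC replicate 3 (0.0509). Junb was at 368, 222, 163 and 139 CPM in bSC replicates 1, 2, 3 and 5, which also overlapped the iSC libraries. It was 4.11-fold lower (log2 fold change -2.04 ± 0.55, adjusted p = 0.024), and the call was lost without iSC replicate 1 or 2 (0.0653 and 0.0957), without bSC replicate 2, 3 or 5 (0.0591, 0.0705 and 0.0652), or when only these groups were fitted (0.0649).

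None of the other 6 genes passed the test between bSCs and iSCs. Log2 fold changes were -1.57 ± 0.50 for Atf3 (adjusted p = 0.052), -1.14 ± 0.39 for Jun (0.066), 1.12 ± 0.38 for Fosl2 (0.0647), 5.50 ± 1.92 for Fosl1 (0.0724), -2.16 ± 0.81 for Fosb (0.0921) and -0.17 ± 0.58 for Jund (0.893). Fosl1 was at 0.0448, 12.1, 13.8 and 51.7 CPM in bSC replicates 1, 2, 3 and 5, so that bSC replicate 1 lay within the iSC range and the other 3 above it. With the pool of animals as a block, Atf3 was called (log2 fold change -1.76, adjusted p = 0.032). Atf3 was called, too, without iSC replicate 4 or 5 (0.0198 and 0.0448) or bSC replicate 1 (0.0296), Jun without iSC replicate 4 (0.0267), Fosl2 without iSC replicate 5 (0.0193), and Fosl1 without iSC replicate 2 (0.0164) or bSC replicate 1 (0.0321). DESeq2 called 7 of the 8 genes here, all but Jund, against 2 by edgeR.

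Comparison of pooled bSCs with dSCs asked how the bridge differed from the distal stump. Bridges were digested together and distal stumps apart, and the part of this in the differences below was not tested. Atf3 was the 1 gene of the 8 that was called, lower in bSCs, against 5.43% of all genes called, 2.31% higher and 3.11% lower. Atf3 was at 279, 294, 279.8 and 261 CPM in dSC replicates 1, 2, 3 and 5 and at 79.7, 46.4, 30.9 and 26.8 CPM in bSC replicates 1, 2, 3 and 5. Every bSC library was below every dSC library, as for 8.62% of all genes (15.4% without overlap in either direction), and the iSC libraries at 153, 279, 40.1 and 75.8 CPM reached from the bSC to the dSC range. Atf3 was 6.06-fold lower in bSCs (log2 fold change -2.60 ± 0.52, adjusted p = 0.0149), and it was called with the pool block (log2 fold change -2.74, adjusted p = 0.0247) and with each of the 8 libraries left out, with log2 values from -3.01 to -2.41. Summed macrophage markers were lower in bSCs too, at 2164 to 6470 against 8214 to 13424 CPM with 0 of 9 markers called, as were summed fibroblast markers, at 8511 to 18425 against 22374 to 32448 CPM with 2 of 6 called. Their part in the Atf3 difference was not tested. The other 7 genes differed by -0.60 to 0.73 on the log2 scale, with adjusted p-values from 0.394 to 0.93.

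In the single nerves, dSCs of each day were set against the 5 iSC libraries. Fosl2 was called on days 4, 6 and 8, against 1.73%, 0.554% and 0.303% of all 15519 genes called on those days and 1.21%, 0.477% and 0.277% called higher. No other member was called on any day, while 0.18%, 0.445% and 0.354% of all genes were called on days 1, 2 and 10. Calls on the 10 comparisons with intact nerve share the 5 iSC libraries.

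Fosl2 was at 20.2, 1.44, 44.6, 26.4 and 38.6 CPM in iSC replicates 0, 1, 3, 4 and 5. In dSCs it was at 35.5, 88.1 and 35.2 CPM on day 1 and at 38.0, 39.1 and 61.4 on day 2, both overlapping iSCs. From day 4 on every dSC library was above every iSC library, as for 6.90%, 5.73%, 6.13% and 4.70% of all genes on these days, with 131, 73.2 and 188 CPM on day 4, 201, 112 and 189 on day 6, 239, 147 and 151 on day 8, and 82.1, 95.3 and 149.7 on day 10.

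The highest dSC mean of Fosl2 was 179 ± 51.9 CPM (SD, n = 3), on day 8. Log2 fold changes against iSCs were 1.01 ± 0.57 on day 1 (adjusted p = 0.815), 0.81 ± 0.57 on day 2 (0.758), 2.31 ± 0.57 on day 4 (0.0278), 2.67 ± 0.57 on day 6 (0.019), 2.77 ± 0.57 on day 8 (0.0213) and 2.05 ± 0.57 on day 10 (0.141). Without the 3 libraries of few detected genes the values for days 4, 6 and 8 were 1.83, 2.16 and 2.31 (0.0458, 0.0428 and 0.0426). On days 1, 2 and 10 they were 0.53, 0.47 and 1.60, and none of these passed. By DESeq2 with all libraries, Fosl2 was called on day 10 too (adjusted p = 0.0193). A test for differences among the 6 dSC days did not pass for Fosl2 (adjusted p = 0.67) or for another of the 8 genes, where 0.0644% of all genes were called. Day 10 against day 1 of dSCs gave 0 calls among the 8 in edgeR, with 0 at an unadjusted p under 0.05 and 0.00644% of all genes called, and Fosl1 was lower in every library of day 10 than in those of day 1, as for 6.59% of all genes.

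These calls depended on libraries and on the fit. The day 4 call was lost without iSC replicate 0 (adjusted p = 0.0574) or dSC replicate 0 or 2 of that day (0.0622 and 0.154), the day 6 call without dSC replicate 0 (0.1), and the day 8 call without iSC replicate 0 (0.0577) or dSC replicate 0 (0.0989). When only the groups compared were fitted, the adjusted p-values were 0.342, 0.396 and 0.343, at log2 values of 2.32, 2.67 and 2.80. Summed macrophage markers were at 247 to 977 CPM in iSCs and at 8240 to 11679, 1997 to 10209 and 2941 to 6304 CPM in dSCs of days 4, 6 and 8. Across the 35 libraries log2 Fosl2 and log2 summed macrophage markers had a Pearson r of 0.612 (Spearman rho 0.515). With the summed level of 6 myelin genes Fosl2 had an r of -0.720 (rho -0.682), and in the 12 pooled libraries an r of -0.837 (rho -0.776). These values describe libraries that share their groups, and the part of either marker list in the Fosl2 level was not tested.

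In bSCs of single nerves Fosl2 was also above every iSC library on all 4 days, as for 5.55%, 6.23%, 3.82% and 4.61% of all genes. It was at 59.0, 72.0 and 99.0 CPM on day 4, 66.9, 109.9 and 65.1 on day 6, 74.8, 95.2 and 203 on day 8, and 93.6, 107 and 268 on day 10. Log2 fold changes were 1.54 ± 0.57 on day 4 (adjusted p = 0.183), 1.61 ± 0.57 on day 6 (0.155), 2.24 ± 0.57 on day 8 (0.0838) and 2.57 ± 0.57 on day 10 (0.0187). Day 10 gave the 1 edgeR call among the 8 genes in bSCs, against 1.3% of all genes called on day 10, of which those called higher made up 0.889% of all genes, and 1.57%, 1.33% and 0.303% on days 4, 6 and 8. DESeq2 called Fosl2 in bSCs on days 6, 8 and 10 (adjusted p = 0.0385, 0.00612 and 0.00143) and not on day 4 (0.0786). Bridge replicate 3 of day 10 was far above the other 2, and the edgeR call was lost without it (log2 fold change 1.89, adjusted p = 0.254), without iSC replicate 0 (0.0533), or when only these groups were fitted (0.482). Without the 3 libraries of few detected genes it was 2.01 (0.0291). Bridge replicate 3 of day 10 also had the highest summed macrophage markers of its group, at 8526 CPM against 1166 and 3998 in the other 2 and 247 to 977 in iSCs, and their part was not tested.

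**Figure D2:**
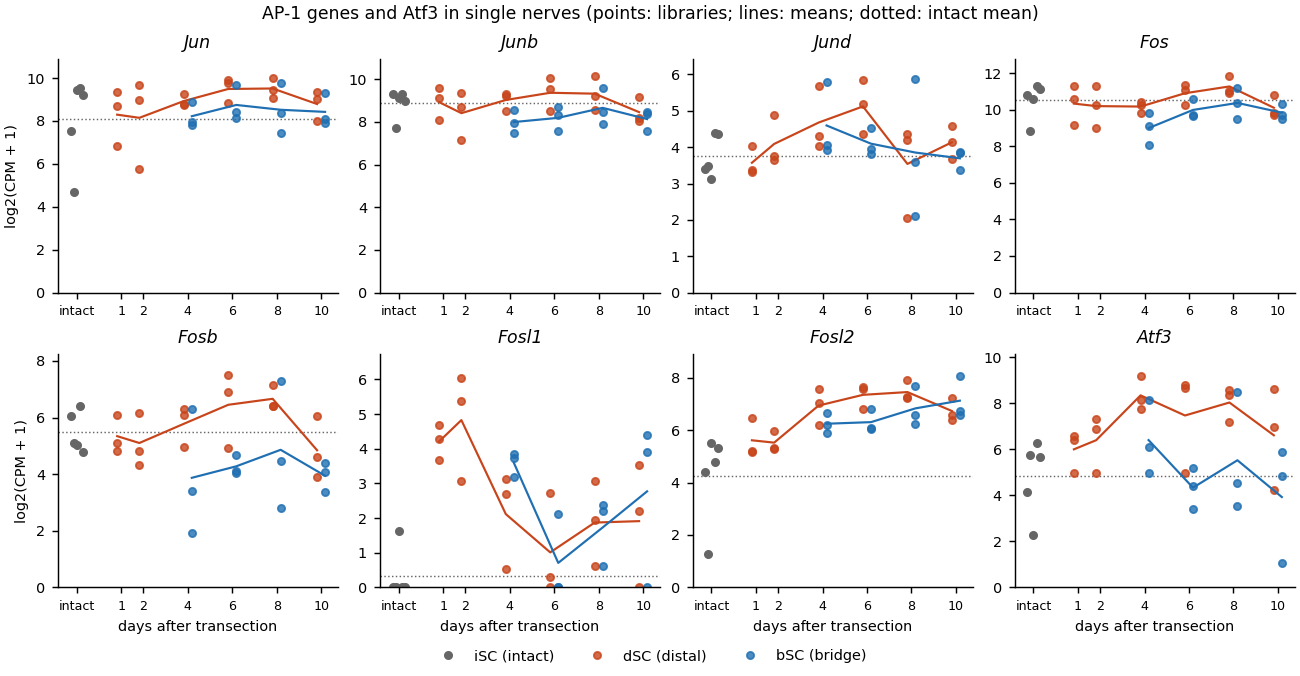
Levels of the 8 genes in single nerves, as log2 of CPM plus 1, against days after transection, with iSCs (grey) at the left, dSCs (red) and bSCs (blue). Points are libraries, lines join the means, and the dotted line is the iSC mean. All Fosl2 points from day 4 on lie above the iSC points, Atf3 lies higher in dSCs than in bSCs on most days, and Fosl1 is highest in dSCs of days 1 and 2.

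Atf3 was at 16.7, 52.7, 3.86, 76.3 and 50.1 CPM in iSCs of single nerves. In dSCs it was at 85.1, 30.8 and 95.3 CPM on day 1, 30.1, 161 and 119 on day 2, 212, 281 and 577 on day 4, 446, 402 and 30.2 on day 6, 378, 146 and 326 on day 8, and 17.6, 126 and 396 on day 10. On days 4 and 8 every dSC library was above every iSC library, as for 6.90% and 6.13% of all genes, while on days 6 and 10 a single library lay within the iSC range. Across the 35 libraries log2 Atf3 and log2 summed macrophage markers had a Pearson r of 0.608 (Spearman rho 0.688). In the 12 pooled libraries the r was 0.116 (rho 0.524). The part of these markers in the Atf3 level was not tested.

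Log2 fold changes of Atf3 in dSCs were 3.16 ± 1.05 on day 4 (adjusted p = 0.113), 2.87 ± 1.04 on day 6 (0.24), 2.82 ± 1.04 on day 8 (0.365) and 2.17 ± 1.03 on day 10 (0.564), and none passed. Without the 3 libraries of few detected genes they were 3.04, 2.73, 2.75 and 2.08 (0.257, 0.412, 0.702 and 0.778). DESeq2 called Atf3 on day 4 (adjusted p = 0.0189). In bSCs Atf3 was at 67.0, 283 and 30.4 CPM on day 4, 20.2, 35.6 and 9.59 on day 6, 22.5, 10.7 and 356 on day 8, and 1.08, 27.5 and 58.2 on day 10. A single bSC library was far above the others on day 4 and on day 8, and all 4 days overlapped iSCs, with adjusted p-values from 0.459 to 0.908.

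Fosl1 was at 0 CPM in 4 of 5 iSC libraries and at 2.11 CPM in replicate 3. Its dSC libraries were at 11.7, 18.3 and 24.97 CPM in dSCs of day 1 and at 7.33, 40.2 and 65.4 CPM on day 2, where every dSC library was above every iSC library, as for 2.91% and 4.07% of all genes. From day 4 to day 10 the dSC libraries were between 0 and 10.6 CPM and overlapped iSCs on each day. Summed levels of 3 neutrophil markers were 0 to 1.11 CPM in iSCs. In dSCs they were 41.5 to 95.8 CPM on day 1, 12.3 to 39.7 on day 2 and 33.8 to 55.0 on day 4. Their part in the Fosl1 level was not tested. Log2 fold changes were 5.34 ± 1.98 on day 1 (adjusted p = 0.52) and 6.38 ± 2.06 on day 2 (0.204), so none passed, and DESeq2 called day 2 (0.0175). Fosl1 of day 2 was also called without iSC replicate 3, the 1 iSC library with counts (0.0493), which left iSCs at 0. Without the 3 libraries of few detected genes, the values of days 1 and 2 were 4.65 (0.492) and 6.19 (0.631). In bSCs Fosl1 was at 8.15, 13.4 and 12.4 CPM on day 4, above every iSC library, with a log2 fold change of 4.65 ± 1.92 (0.244), and again called without that iSC library (0.0446). As in pooled nerves, Fosl1 could pass the filter only through the injured groups.

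Jun, Junb, Jund, Fos and Fosb passed in none of the 10 comparisons of single-nerve groups with iSCs. The range over iSC libraries was 24.4 to 753 CPM for Jun, 209 to 637 for Junb, 7.71 to 20.1 for Jund, 463 to 2478 for Fos and 26.5 to 83.8 for Fosb. The lowest values of Jun, Junb and Fos were all in replicate 1, 1 of the libraries of few detected genes. In dSCs the log2 fold changes of Fos against iSCs were between -0.54 and 0.61, and those of Jun between -0.19 and 0.75, with standard errors of 0.52 to 0.53 and 0.72 to 0.73. Without the 3 libraries of few detected genes, Fos ran from -0.82 to 0.34 and Jun from -0.79 to 0.18. Jun then turned from 0.14 to -0.46 on day 4 and from 0.09 to -0.49 on day 10, and on day 6 it went from 0.75 to 0.12. Jun in dSCs was at 951, 862 and 453 CPM on day 6 and at 697, 544 and 1024 CPM on day 8, the days of its highest means, and overlapped iSCs on both. The largest change of Fos in bSCs was -1.57 ± 0.56 on day 4 (adjusted p = 0.163), which DESeq2 called (0.0379), and without the 3 libraries it was -1.85 (0.0592). Fosb was below every iSC library in bSCs of days 6 and 10, at 15.3, 24.7 and 16.3 CPM and at 15.9, 19.96 and 9.24 CPM, as for 3.47% and 2.75% of all genes, with adjusted p-values of 0.435 and 0.353. In dSCs of day 8 Fosb was at 84.8, 83.98 and 141 CPM, just above the highest iSC library at 83.81 CPM, as for 6.13% of all genes (log2 fold change 1.10 ± 0.81, adjusted p = 0.807).

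**Figure D3:**
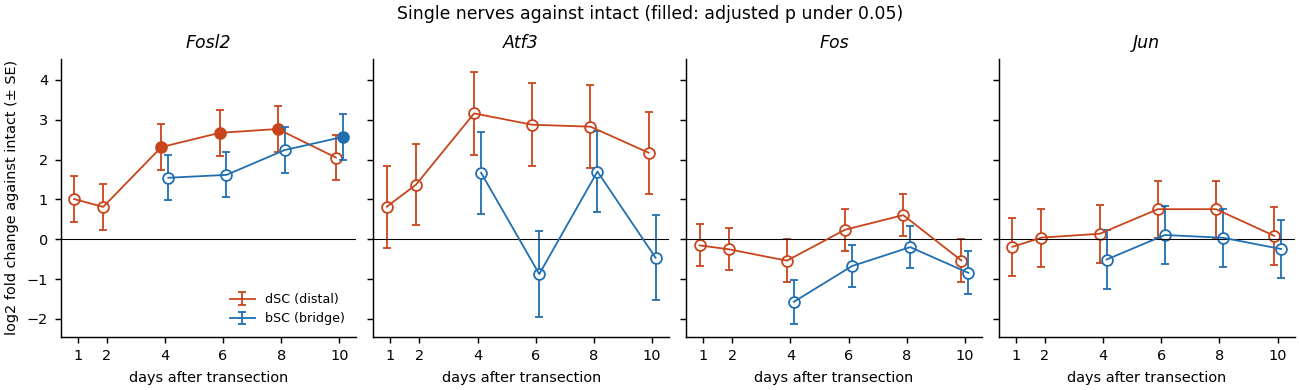
Log2 fold changes of Fosl2, Atf3, Fos and Jun against iSCs in single nerves by day, for dSCs (red) and bSCs (blue), with bars of 1 standard error. Filled points had an adjusted p under 0.05, which were Fosl2 in dSCs of days 4, 6 and 8 and in bSCs of day 10.

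Pooled and single nerves of day 6 gave different values for Fos and Junb in dSCs, although regions and day were alike. Fos had a log2 fold change of -2.23 ± 0.59 in pooled dSCs and 0.24 ± 0.52 in single-nerve dSCs of day 6, and Junb of -1.79 ± 0.54 and 0.50 ± 0.49. Without the 3 libraries of few detected genes the single-nerve values were -0.09 for Fos, which turned its sign, and 0.30 for Junb. The iSC mean of Fos was 3634 CPM ± 3003 (n = 4) in pooled and 1697 ± 779 (n = 5) in single nerves, and the dSC mean was 774 ± 144 and 2002 ± 699. The experiments differed in input and animals and were scaled apart, and the difference between them was not tested. Fosl2 was higher in dSCs in both, at 1.72 ± 0.38 and 2.67 ± 0.57.

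Comparison of bSCs with dSCs in single nerves called none of the 8 genes on any day, with 0, 1, 0 and 2 of all genes called on days 4, 6, 8 and 10 (0%, 0.00644%, 0% and 0.0129%). At an unadjusted p under 0.05 by edgeR, 4 of the 32 gene and day values passed, 3 on day 6 (Junb, Fosb and Atf3) and Atf3 on day 10. Of all genes 380, 1125, 422 and 1022 passed on days 4, 6, 8 and 10 (2.45%, 7.25%, 2.72% and 6.59%). Bridge libraries lay below every dSC library for Fosb and Fosl2 on day 6, as for 8.71% of all genes, and for Fos on day 4, as for 2.22%, while those of Fosl1 lay above on day 4, as for 1.62%. Log2 fold changes of Atf3 were -1.49 ± 1.19, -3.75 ± 1.30, -1.13 ± 1.18 and -2.64 ± 1.24 on these days. Over the mean of the 4 days Atf3 was 4.76-fold lower in bSCs (log2 fold change -2.25 ± 0.61, adjusted p = 0.128), where 0.103% of all genes were called. With the animal as a block, in the 20 libraries of 10 animals that gave both regions, Atf3 was called (log2 fold change -2.70, adjusted p = 0.0336) and the other 7 genes were not. Atf3 was called as well without bSC replicate 2 of day 8 (log2 fold change -3.03, adjusted p = 0.0127), the library at 356 CPM, as was Fosb (-1.93, 0.0366). By DESeq2 Atf3 and Junb were called over the 4 days (0.0016 and 0.0495) and Atf3 on day 6 (0.0374). A dependence of the difference on the day did not pass for any of the 8 genes or of all genes in edgeR (0% called). At an unadjusted p under 0.05 there were 488 genes (3.14%), 0 of them among the 8. DESeq2 called 6 genes, 0 of the 8.

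Within the 10 animals, Atf3 was lower in the bridge in 8. The differences in log2 CPM were -1.66, 0.01 and -4.24 in the animals of day 4, -4.46, -3.49 and -1.64 on day 6, -4.06, -3.75 and 0.13 on day 8 and -2.76 in the animal of day 10. The 2 exceptions were both near 0. The mean was -2.59 ± 1.72 (SD, n = 10), with p = 0.00781 in the exact two-sided sign-flip permutation test, whose smallest possible p is 0.00195. The adjusted p of this test was 0.207 over all genes, of which 0 (0%) were called and 2294 (14.8%) had an unadjusted p under 0.05.

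Fos was lower in the bridge in 9 of 10 animals, at a mean of -0.91 ± 0.84 (exact p = 0.00977, adjusted p = 0.221). Fosb was lower in 8, at -1.98 ± 1.65 (exact p = 0.00781, adjusted p = 0.207), Jun in 8, at -0.74 ± 0.88, Fosl2 in 8, at -0.63 ± 0.89, and Junb in 7, at -0.82 ± 0.92. Jund was lower in 5 of 10, at -0.28 ± 0.998, and Fosl1 in 3 of 10, at 0.41 ± 2.81 with a range from -5.39 to 4.45. None of the 8 passed the adjusted test. In the same animals summed macrophage markers were lower in the bridge in 8 of 10, at -0.45 ± 0.66 on the log2 scale, and Schwann cell markers in 8 of 10, at -0.68 ± 1.23, and their part was not tested.

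**Figure D4:**
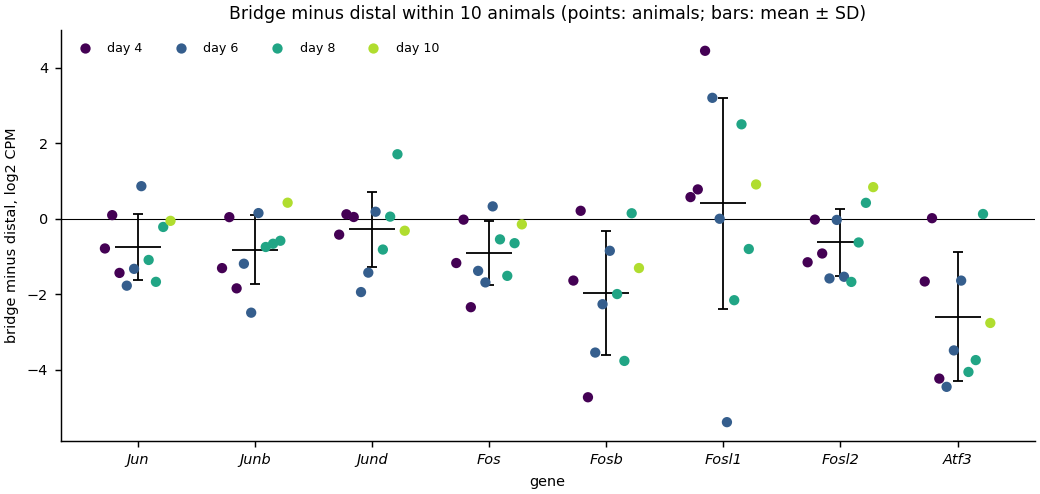
Bridge minus distal difference in log2 CPM for each gene within the 10 animals that gave both libraries, coloured by day, with the mean and SD. Of the Atf3 points, 8 lie below 0 and the other 2 near it, while the Fosl1 points reach from -5.39 to 4.45.

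Over the 35 single-nerve libraries Junb, Fos and Fosb varied together. Log2 CPM of Junb and Fos had a Pearson r of 0.897 (Spearman rho 0.911, 0.88 without the 2 libraries farthest from the median of Junb), and each was the most similar of all genes to the other. Ier2 and Zfp36, both immediate early genes, were among the 3 genes most like Junb, at 0.836 and 0.862. For Fosb the most similar were 5430416N02Rik (0.821), Zfp36 (0.808) and Fos (0.770), and for Jun they were Mical3 (0.911), Dtx3 (0.891) and Casp4 (0.867).

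Jun had an r of 0.738 with Fos (rho 0.811) and 0.469 with Fosb (rho 0.643), while Atf3 had an r of 0.635 with Fosb (rho 0.722). Without the 2 libraries farthest from the median of Jun, its r was 0.733 with Fos and 0.627 with Fosb. Its r with Fosl2 then fell from 0.590 to 0.208. Jund was most like Cic (0.678), Tmem158 (0.662) and 4930515G01Rik (0.653). Fosl2 was most like Dcakd (0.832), Hs6st1 (0.829) and Smg9 (0.828). Fosl1 was most like Timp1 (0.720), which encodes an inhibitor of metalloproteinases, E230016K23Rik (0.687) and Mmp8 (0.676). Atf3 was most like Gzmb (0.827), which encodes the protease granzyme B, Apod (0.825), which encodes a lipid carrier, and Rgs1 (0.796). Fosl2 and Fos had an r of 0.179. These values describe libraries that share groups, depth and animals, and carry no test. They include the libraries of few detected genes, and the values for the most similar genes were not taken without them.

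Of 24 further immediate early and dissociation-responsive genes, 23 were tested in pooled nerves, and 5 fell and 0 rose in dSCs against iSCs, where 2.69% of all genes fell, with a median log2 fold change of -0.86 against -0.02 over all genes. The 5 were Nr4a1 (-2.94 ± 0.60, adjusted p = 0.0134), Nr4a2 (-2.85 ± 0.60), Cyr61 (-2.35 ± 0.48), Egr1 (-2.18 ± 0.57) and Socs3 (-1.95 ± 0.50), so Fos fell beside Nr4a1, Nr4a2 and Egr1, which encode transcription factors of the same early response. In bSCs 6 of 23 fell and 0 rose against iSCs, where 7.46% of all genes fell, with a median of -1.23 against -0.16. Both counts share the iSC libraries of the Fos calls, and values with libraries left out are not given. This list and those below were chosen with earlier results of these data known, so their counts are no independent support. In single nerves 0 of 24 rose and 2 fell in dSCs of day 4, at a median of -0.14 against -0.06. On that day 1.73% of all genes were called in either direction, and those called higher made up 1.21% of all genes. On the other days 0 of 24 were called in dSCs, and the medians were 0.12 on day 1, -0.26 on day 2, 0.38 on day 6, 0.69 on day 8 and -0.32 on day 10. The single-nerve median of day 6 was thus above 0, where that of pooled dSCs of the same day was below 0. These single-nerve medians include the 3 libraries of few detected genes, and medians without them were not taken. On day 6 Fos went from 0.24 to -0.09 without them and Junb from 0.50 to 0.30. Whether the sign of the day 6 median rests on these libraries was not tested.

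Of 23 other bZIP partners, 3 fell beside Atf3 in bSCs against dSCs, where 3.11% of all genes fell, namely Maf (-2.19 ± 0.52, adjusted p = 0.0286), Cebpd (-1.70 ± 0.35, 0.0166) and Nfe2l2 (-1.24 ± 0.27, 0.0207), and 0 rose, at a median of -0.45 against -0.07 over all genes. Summed macrophage and fibroblast markers were lower in these bSCs without overlap, as given above, and their part was not tested. A further list held 22 genes of the JNK and ERK pathways, which act on JUN and on transcription of Fos. Among its called genes in dSCs against iSCs, the 3 with the largest changes are named. Dusp10 rose (3.25 ± 0.85), while the JNK scaffold genes Mapk8ip1 (-2.59 ± 0.65) and Mapk8ip3 (-1.92 ± 0.47) fell. Over all genes 2.63% rose and 2.69% fell, and the number called on this list is not given here. Mapk8ip3 was at 76.3 to 105 CPM in iSCs, 10.7 to 38.6 in dSCs and 0.179 to 0.700 in bSCs of pooled nerves, without overlap, and fell in bSCs against dSCs (-5.75 ± 0.58, adjusted p = 0.00111).

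Of 14 textbook AP-1 target genes 11 were tested in pooled nerves, and 4 rose and 1 fell in dSCs against iSCs, where 2.63% of all genes rose and 2.69% fell, at a median of 0.76 against -0.02 over all genes. Ccnd1, which encodes cyclin D1, rose (3.25 ± 0.31, adjusted p = 0.000438), as did Plaur (2.72 ± 0.55), which encodes the urokinase receptor, Cd44 (2.03 ± 0.31) and Hmox1 (1.68 ± 0.40), while Hbegf fell (-1.75 ± 0.35). Macrophage markers were also higher in dSCs, as given above, and their part in these values was not tested. Hbegf, which encodes a growth factor of the EGF family, was at 22.7 to 53.2 CPM in dSCs and 202 to 381 in bSCs and rose in bSCs against dSCs (3.10 ± 0.37, adjusted p = 0.00161), as did Cd44 (1.18 ± 0.30). On day 1 of the single nerves, where 0.18% of all genes were called, Timp1 (3.65 ± 0.67, adjusted p = 0.0112) and Cd44 (2.25 ± 0.38, 0.00644) rose among 13 targets tested. Summed macrophage markers were at 2531 to 4952 CPM in dSCs of day 1 and 247 to 977 CPM in iSCs, and 3 neutrophil markers summed to 41.5 to 95.8 CPM and to 0 to 1.11 CPM, and their part was not tested. Of 6 repair genes that depend on c-Jun in injured nerves, 3 rose in pooled dSCs against iSCs and 3 in bSCs, where 2.63% and 7.24% of all genes rose. In both they were Gdnf, which encodes a neurotrophic factor, Olig1, which encodes a transcription factor, and Ngfr, which encodes the neurotrophin receptor p75. Ngfr had log2 fold changes of 2.65 ± 0.47 in dSCs (adjusted p = 0.0056) and 1.95 ± 0.45 in bSCs (0.0116). Those of Gdnf and Olig1 in dSCs were larger and less precise, at 10.4 ± 1.94 (0.0142) and 9.45 ± 2.01 (0.0172). A fold of this size rests on low iSC counts, and such genes can pass the filter through the injured groups alone. How many of the 6 were tested is not given here.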

How the data were processed

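Gene expression was measured by Smart-seq2 RNA sequencing of sorted tdTomato+ cells. The authors mapped reads to mm9 with TopHat2 2.0.11, counted reads per gene with HTSeq, whose strand setting is not given in the sources used here, and deposited raw counts per gene, in 1 file or 2 sequencing lanes a library. Lanes of a library were summed, and rows of 92 spike-in sequences and of unassigned reads were left out of library sizes and tests. Genes took 39.1% to 47.1% of the reads in gene, spike-in, no-feature and ambiguous rows, with reads of more than 1 alignment not included.

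Libraries were grouped by the sample labels. Counts were tested with edgeR 4.0.16 (quasi-likelihood F test, TMM scaling, its default filter on low counts, R 4.3.3), in 1 fit for the 12 pooled libraries and another for the 35 single-nerve libraries, with Benjamini-Hochberg adjustment over all genes tested. CPM values use TMM library sizes, and log2 CPM has a prior count of 2. The adjusted p-values of left-out libraries and other fits come from the same test, and scripts were tested on simulated data. Alternatives were DESeq2 1.42.0, its size factors in edgeR, no filter, the study's filter (at least 100 counts in 85% of single-nerve libraries), a fit of the groups compared only, blocks, a covariate for 1 file or 2 lanes and leaving out each library. Leaving out 3 libraries of few detected genes was chosen after seeing the data.

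Pool numbers and animal names in the labels pair the regions. Deviations of pooled libraries of the same animals had a mean r of -0.0143 (from -0.129 to 0.0802, 10 pairs), against 0.00448 for other pairs. Those of the 10 single-nerve animals with both regions had a mean r of 0.157 (from -0.0624 to 0.677), against -0.0174. A day 10 bridge library whose labels disagree on its replicate was left out of the pairs. Bridge minus distal differences over animals were tested by an exact two-sided sign-flip permutation test with all 1024 arrangements.

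The 8 genes and the gene lists were chosen with earlier results of these data known. Of each list, the 3 called genes with the largest absolute log2 fold change are named, and Egr1, Socs3, Hmox1 and Hbegf in dSCs against iSCs were added after their values were seen to complete counts of 5. Results for some items are not reported here. For each of the 8 genes, the 3 genes of highest correlation over the single-nerve libraries were taken. The count of reads limits the precision of low values, and intervals for depth cover counting error only.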

Additional observations from a re-analysis of the deposited data

Results flagged for a closer look

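A library stood apart from the rest of its group, by a gap to its nearest neighbour that took most of the group's range, in 6 of the 32 groups of 4 or 5 libraries searched. Chance gives about 1 in 20 groups, a rate that does not apply to the 2 groups of Fosl1, where a single library had counts and every other was at 0. Fosl2 was at 60.6 CPM in pooled iSC replicate 5, where the nearest library was at 31.2, and at 148 CPM in pooled bSC replicate 5, where the nearest was at 63.2. Jund was at 97.0 CPM in pooled bSC replicate 3, where the nearest was at 28.8. Fos was at 559 CPM in pooled dSC replicate 3, below the nearest at 837. Fosl1 was at 1.63 CPM in pooled iSC replicate 2 and at 2.11 CPM in single-nerve iSC replicate 3, while all other iSC libraries of each experiment were at 0.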

How the results depend on the processing

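The call of Atf3 in pooled bSCs against dSCs held under every alternative run and with each of the 8 libraries left out. By DESeq2, 4 genes were called in pooled dSCs against iSCs and 7 in bSCs against iSCs, where edgeR called 2 each, and in single nerves 6 in dSCs against iSCs (edgeR 3), 4 in bSCs against iSCs (1), 1 in bSCs against dSCs of the same day (0) and 2 over the mean of 4 days (0). With only the groups compared in the fit there were 1 and 1 in the pooled comparisons with iSCs, and 0 and 0 in the single-nerve ones. With the pool as a block, 3 genes were called in dSCs and 3 in bSCs against iSCs, and 1 in bSCs against dSCs. With the animal as a block, 1 was called over the mean of 4 days, and a block for replicate numbers that single-nerve iSCs and injured nerves merely share gave 2 in bSCs against iSCs. The blocks changed no other call beyond those given with the results.

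With 1 library left out, counts were 0 to 2 in pooled dSCs against iSCs, 0 to 4 in bSCs against iSCs, 1 to 4 in single-nerve dSCs and 0 to 2 in bSCs against iSCs, and 0 to 2 over the mean of 4 days. Direction reversed where values were small or rested on 1 library. Jund in dSCs against iSCs was -0.031 with the pool block, and with a covariate for lanes Jund in bSCs against iSCs was 0.026 and Fosb in bSCs against dSCs 0.11. With 1 library left out, Jund ranged from -0.27 to 0.46 (dSCs against iSCs), from -0.90 to 0.14 (bSCs against iSCs) and from -1.07 to 0.10 (bSCs against dSCs), and in the last comparison Fos from -0.69 to 0.027, Fosb from -0.78 to 0.24 and Fosl1 from -0.43 to 1.12. In single nerves Fosl1 ranged from -1.48 to 1.25 over the mean of 4 days, and on day 6 against iSCs the limits were -1.79 and 7.86 for dSCs and -5.77 and 7.01 for bSCs. Atf3 ranged from -1.24 to 2.28 on day 8 and from -1.50 to 0.022 on day 10 in bSCs against iSCs. The cause was not tested.

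Over all genes DESeq2 called 1393, 3114 and 1939 in the pooled comparisons (dSCs and bSCs against iSCs, then bSCs against dSCs) where edgeR called 732, 2022 and 746 and the pool block 287, 968 and 236. On single-nerve day 4 it called 1471 in dSCs, against 268 by edgeR and 43 in the fit of those groups only. Over the mean of 4 days the count was 16 by edgeR, 579 by DESeq2 and 236 with the animal block. Groups of 3 to 5 libraries and iSC libraries far apart limit what these comparisons can show for Fos, Junb, Fosb and Jun. The same holds for Atf3 in comparisons with iSCs, and iSC counts of 0 limit those for Fosl1.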

Other observations

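Apart from the 8 genes, the JNK scaffold gene Mapk8ip3 had unlike values in pooled and single nerves. It fell in pooled bSCs against dSCs (log2 fold change -5.75 ± 0.58, adjusted p = 0.00111 in edgeR). Over the mean of 4 days in single nerves it was at -1.20 ± 0.80 (adjusted p = 0.799). The difference between the experiments was not tested.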
